A study of Mus musculus with 12 samples.

Results

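The comparison of CC with CB cells in Pbrm1 knockout mice covered 67159 autosomal peaks of open chromatin, of 68689 in the count table, each 501 bp long. The members were all autosomal peaks, with no selection on their values; the 1530 peaks on the X chromosome entered the fit but not the counts. The 6 libraries of the comparison were 3 of CC and 3 of CB cells from Pbrm1-/- mice, called HOMO below, and CC and CB libraries with the same number were compared as pairs. Another 6 libraries, 3 of CC and 3 of CB cells from Pbrm1+/+ mice (WT), shared the estimate of spread and gave the values set beside those of HOMO. All 4 groups came from the spleen of C57BL/6 mice of 8 to 10 weeks, and accessibility was measured by Omni-ATAC-seq, where a transposase tags the DNA that nucleosomes leave exposed. The labels give the genotype as a whole-gene status, with no Cre driver, and the column names carry the prefix Pbrm1AID, which the labels do not explain. They do not spell out CB and CC either; the series is about germinal center B cells and its title speaks of centrocytes. Nothing in the labels says that the 3 libraries of a group came from separate mice. The p-values measure how the CC to CB ratio varied between these pairs of libraries, and that variation may be partly technical.

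In a germinal center, B cells alternate between a dark zone, where they divide and mutate their antibody genes, and a light zone, where they test the mutated receptor against antigen and receive T cell help through CD40. Dark zone cells are usually marked by the chemokine receptor Cxcr4 and need Foxo1, whereas light zone cells carry Cd83 and Cd86 and show the imprint of B cell receptor, CD40 and NF-kB signalling. Pbrm1 is a bromodomain subunit found only in the PBAF form of the SWI/SNF chromatin remodelling complex, whose ATPase Smarca4 slides or ejects nucleosomes. Accessibility of a peak is a measure of the DNA, not of transcription of a nearby gene. Each peak was given the name of the nearest protein-coding gene within 50000 bp, which does not show that it regulates that gene.

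Start sites of genes show what the assay read. The 7 sequences here are shown because the peaks over them were among the 6 of smallest p in each direction. Those 6 came from windows largely covered by a peak above a floor of accessibility. Genes with provisional names and those of an autosome were left out. Not all of the 6 are shown, and the one over Slc36a3os, of smallest p among the higher, is not. The sequences were chosen after their values were seen. Each is the 250 bases before a RefSeq start site (GRCm38.p6, the mm10 build), 5′ to 3′ on the gene's strand, with every match to a searched motif in capitals. Those more open in CC were Fcrl5, a B cell surface receptor of the Fc receptor-like family (chr3:87435532-87435781, + strand, no match), Rcan1, an inhibitor of calcineurin (chr16:92400079-92400328, - strand, an AP-1 motif and then a GC box), Ebi3, a subunit of interleukin 27 (chr17:55952373-55952622, + strand, no match), and Fcer2a, which encodes CD23 (chr8:3694175-3694424, - strand, an NF-Y motif).
Fcrl5: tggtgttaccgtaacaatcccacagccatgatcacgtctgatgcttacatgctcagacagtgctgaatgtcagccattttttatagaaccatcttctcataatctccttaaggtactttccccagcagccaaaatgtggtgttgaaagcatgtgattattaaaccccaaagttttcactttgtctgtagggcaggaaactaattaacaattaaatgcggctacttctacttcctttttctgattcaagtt
Rcan1: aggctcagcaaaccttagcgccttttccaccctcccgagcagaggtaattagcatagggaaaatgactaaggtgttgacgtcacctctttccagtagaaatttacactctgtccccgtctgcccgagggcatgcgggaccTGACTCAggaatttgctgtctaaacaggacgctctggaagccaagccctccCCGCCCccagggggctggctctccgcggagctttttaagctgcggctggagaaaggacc
Ebi3: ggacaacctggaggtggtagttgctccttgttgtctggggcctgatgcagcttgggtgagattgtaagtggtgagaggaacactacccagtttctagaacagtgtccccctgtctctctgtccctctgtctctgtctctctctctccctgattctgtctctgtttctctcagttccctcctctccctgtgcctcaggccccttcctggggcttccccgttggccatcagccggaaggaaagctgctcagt
Fcer2a: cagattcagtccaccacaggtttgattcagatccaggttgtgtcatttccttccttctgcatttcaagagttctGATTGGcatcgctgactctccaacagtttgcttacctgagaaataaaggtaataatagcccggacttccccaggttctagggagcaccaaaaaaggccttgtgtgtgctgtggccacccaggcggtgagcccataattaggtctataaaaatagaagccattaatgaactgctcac
Those less open in CC were Tgfa, a ligand of the epidermal growth factor receptor (chr6:86194972-86195221, + strand, GC boxes), Ak7, an adenylate kinase of motile cilia (chr12:105705732-105705981, + strand, a forkhead motif and then a GC box), and Arhgef2, a microtubule-bound activator of RhoA (chr3:88615893-88616142, + strand, an octamer motif).
Tgfa: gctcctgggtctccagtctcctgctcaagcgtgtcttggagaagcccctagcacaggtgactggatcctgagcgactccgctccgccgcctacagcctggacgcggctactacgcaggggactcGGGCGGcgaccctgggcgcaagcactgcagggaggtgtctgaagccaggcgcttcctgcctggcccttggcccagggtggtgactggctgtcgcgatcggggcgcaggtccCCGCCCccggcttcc
Ak7: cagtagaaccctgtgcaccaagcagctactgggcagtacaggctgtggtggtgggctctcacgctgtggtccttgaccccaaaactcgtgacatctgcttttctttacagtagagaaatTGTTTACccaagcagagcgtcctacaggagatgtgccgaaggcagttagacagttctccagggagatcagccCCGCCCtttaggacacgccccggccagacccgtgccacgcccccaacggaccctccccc
Arhgef2: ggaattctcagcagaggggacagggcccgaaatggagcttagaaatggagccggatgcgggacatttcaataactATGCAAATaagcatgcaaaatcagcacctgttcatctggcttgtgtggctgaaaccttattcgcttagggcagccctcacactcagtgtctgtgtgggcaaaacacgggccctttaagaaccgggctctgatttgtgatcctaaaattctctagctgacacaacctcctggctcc
Values are CPM, the counts scaled to a common library size after TMM normalization, and folds are log2 fold changes of CC against CB with the replicate number as a block, from edgeR's quasi-likelihood test with Benjamini-Hochberg adjustment over all 68689 peaks. Over the Fcrl5 start, HOMO CB replicates 1 to 3 read 1.83, 3.42 and 2.53 CPM and HOMO CC replicates 7.98, 8.12 and 6.82 CPM, a log2 fold change of 1.45 (SE 0.178, adjusted p = 1.26e-09). All 3 CC libraries lay above all 3 CB libraries. Over the Fcer2a start the CB libraries read 17.0, 19.1 and 16.7 CPM and the CC libraries 28.8, 30.3 and 24.8 CPM, again without overlap (log2 fold change 0.65, SE 0.0932, adjusted p = 1.08e-07). In WT, the Fcer2a change was 0.21 with an adjusted p of 0.125. At the other starts shown the WT change had the same sign and was called, as with 1.07 at Fcrl5 and -0.81 at Tgfa. A call in HOMO without one in WT is no test of a difference. That test, given further below, called 0 peaks in edgeR. Over the Tgfa start the order was the opposite, with 20.7, 16.4 and 18.99 CPM in CB and 10.1, 9.38 and 7.82 CPM in CC (log2 fold change -1.05, SE 0.113, adjusted p = 1.64e-11). At Arhgef2 the 3 CB libraries read 31.8, 19.1 and 21.1 CPM and the CC libraries 19.2, 11.99 and 12.1 CPM, so that CC replicate 1 overlapped CB replicate 2. Within each of its pairs CC was lower than CB, and the blocked change was -0.74 (SE 0.0968, adjusted p = 9.12e-09).

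Across all autosomal peaks, 15048 changed between HOMO CC and HOMO CB at an adjusted p under 0.05, which is 22.4% of the 67159. Of these, 8504 (12.7% of all peaks) were more open in CC and 6544 (9.74%) were less open. Among the peaks higher in CC, the median log2 fold change was 0.71 and the largest 2.97, and 2101 of them (24.7%) more than doubled. Among the peaks lower in CC the changes were smaller, with a median size of 0.44 and a largest size of 2.15, and 477 (7.29%) fell by more than one log2 unit. Genes with at least 1 higher peak numbered 3933, genes with a lower peak 3316, and 1165 genes had both. The groups of 3 did not overlap at 71.9% of the higher and 69.0% of the lower peaks, against 25.1% of all autosomal peaks. The number of calls depended on the replicate block: without it 4895 peaks passed (3241 higher, 1654 lower). Each of these was also called, with the same sign, in the blocked fit. The number of calls also fell to 8618 when HOMO replicate 2 was left out and to 8331 without HOMO replicate 3. It was 13911 without HOMO replicate 1, and DESeq2 with the same block called 9149.

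**Figure D1:**
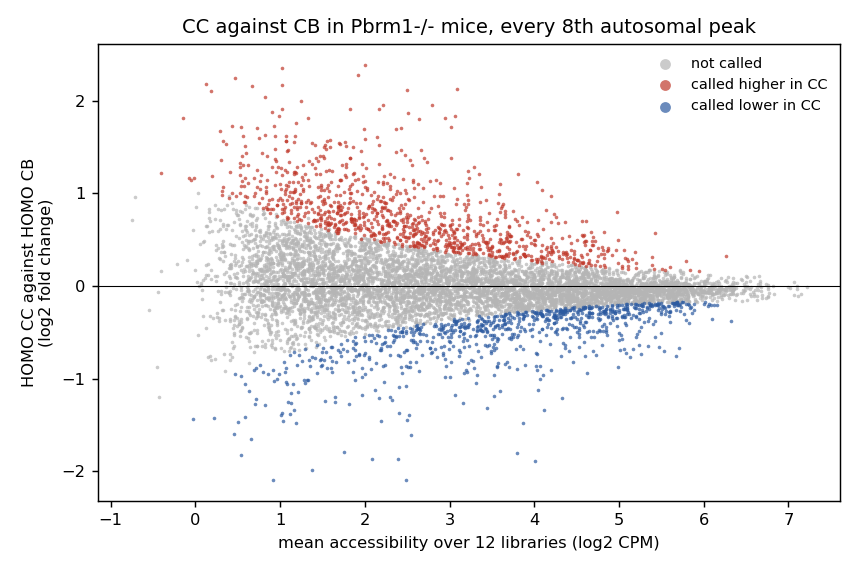
Each point is 1 autosomal peak (every 8th peak of the table): the x axis is its mean log2 CPM over the 12 libraries and the y axis its log2 fold change of HOMO CC against HOMO CB, with colours for peaks called higher, called lower or not called. Peaks called higher in CC dominate among the weakly open peaks on the left, and peaks called lower in CC among the strongly open ones on the right.

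The direction of change went with how open a peak was. Of the 5997 peaks with a mean under 1 log2 CPM, 920 were higher and 135 lower in CC, with a median change of 0.23 over all of them. In the middle of the range, from 3 to 4 log2 CPM, 1849 were higher and 1666 lower. From 5 to 6 log2 CPM the counts turned, with 219 higher and 983 lower, and above 6 log2 CPM 6 were higher and 79 lower. The HOMO CC libraries were shallower than their paired CB libraries in all 3 pairs (CB totals were 1.19, 1.39 and 1.18 times the CC totals); with the log2 library total as a further covariate, 7186 peaks were higher and 5045 lower.

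Position relative to genes divided the calls as well. Gene-end peaks, which lie within 1000 bp of either end of a protein-coding gene and include the promoters, were the most open class, with a median of 21.6 CPM in HOMO CB. They changed least often: 685 of 15681 were higher in CC (4.37%) and 1278 lower (8.15%). Of the 31093 peaks within genes, 4695 were higher (15.1%) and 3226 lower (10.4%), and of the 20385 intergenic peaks 3124 were higher (15.3%) and 2040 lower (10.0%). Thus 34.9% of the called gene-end peaks were higher in CC, against 59.3% of those within genes and 60.5% of the intergenic ones. The classes also differ in level, and at equal level the contrast was smaller or absent. From 2 to 3 log2 CPM the same shares were 66.0%, 67.4% and 67.5%, and from 4 to 5 log2 CPM 20.2%, 35.9% and 41.1%. The balance at gene ends depended on the scaling and the block: 790 were higher and 927 lower with loess offsets (46.0% higher), and without the block 177 were higher and 134 lower, which turns the order. Across the 19 autosomes the share of called peaks ran from 20.4% on chromosome 19 to 25.8% on chromosome 16.

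The 12 higher and 12 lower peaks with the smallest p, each from a different gene, are given as a description: they were chosen by p from these libraries and had to have 1 sign in all 3 pairs, so their separation is no further evidence. None lay at a gene end, 15 were within a gene and 9 between genes. The first among the peaks more open in CC lay within Fnbp1, which encodes a membrane-bending F-BAR protein (chr2:31036588-31037088). It read 3.93, 6.97 and 8.63 CPM in HOMO CB and 19.4, 25.6 and 29.0 CPM in HOMO CC, which is a change of 1.87 on the log2 scale (SE 0.109, edgeR adjusted p = 4e-22). Even the lowest CC library was more than double the highest CB library.

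Of the other 11 higher peaks of this group, 5 are given with their values. A peak within Traf2, an adaptor of CD40 and the TNF receptors, read 2.62, 6.78 and 7.29 CPM in CB and 16.0, 18.95 and 22.4 CPM in CC (log2 fold change 1.67, SE 0.123). A peak 32915 bp from Nr4a3, an orphan nuclear receptor induced by antigen receptor signals, read 2.75, 3.17 and 2.89 CPM in CB and 9.76, 13.2 and 11.8 CPM in CC (2.01, SE 0.151). Near Cd70, the ligand of CD27, the CB libraries read 5.63, 8.60 and 11.1 CPM and the CC libraries 14.2, 26.4 and 27.0 CPM (1.43, SE 0.108). Replicate 1 was the lowest of its group at Traf2 and Cd70 in both cell types. A peak 36241 bp from Nab1, a corepressor bound by Egr factors, rose by 1.80 (SE 0.136), and one 14340 bp from Il1b, the interleukin 1 beta gene, by 1.88 (SE 0.132). The other 6 were assigned to Slc12a8, Afap1l2, Iqsec1, Spef1l, Vps13d and Exoc2, with changes from 1.498 to 2.13.

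On the other side, the peak of smallest p lower in CC was 5649 bp from Tef, a PAR bZIP transcription factor of the circadian output (chr15:81832262-81832762). It read 27.1, 23.8 and 27.3 CPM in HOMO CB and 8.13, 6.14 and 7.34 CPM in HOMO CC, a change of -1.89 (SE 0.108, edgeR adjusted p = 2.24e-22). A peak within Cbfa2t3, which encodes the ETO2 corepressor, fell from 56.7, 66.8 and 67.3 CPM to 17.9, 24.8 and 32.9 CPM (-1.30, SE 0.0775). A peak within Deup1, a gene of centriole amplification, had the largest fall of the group, from 22.1, 21.4 and 23.8 CPM to 3.55, 6.07 and 4.78 CPM (-2.15, SE 0.133). A further peak of the group, named for the amino acid transporter gene Slc36a4 by its distance of 39330 bp, lies close to the Deup1 peak on chromosome 9 and fell by 1.35 on the log2 scale (SE 0.0803). The remaining 8 were assigned to Thbs4, Zfp746, Sorcs2, Slc39a11, Med12l, Ppp2r5a, Zfat and Cplx2, with changes from -1.97 to -1.11.

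**Figure D2:**
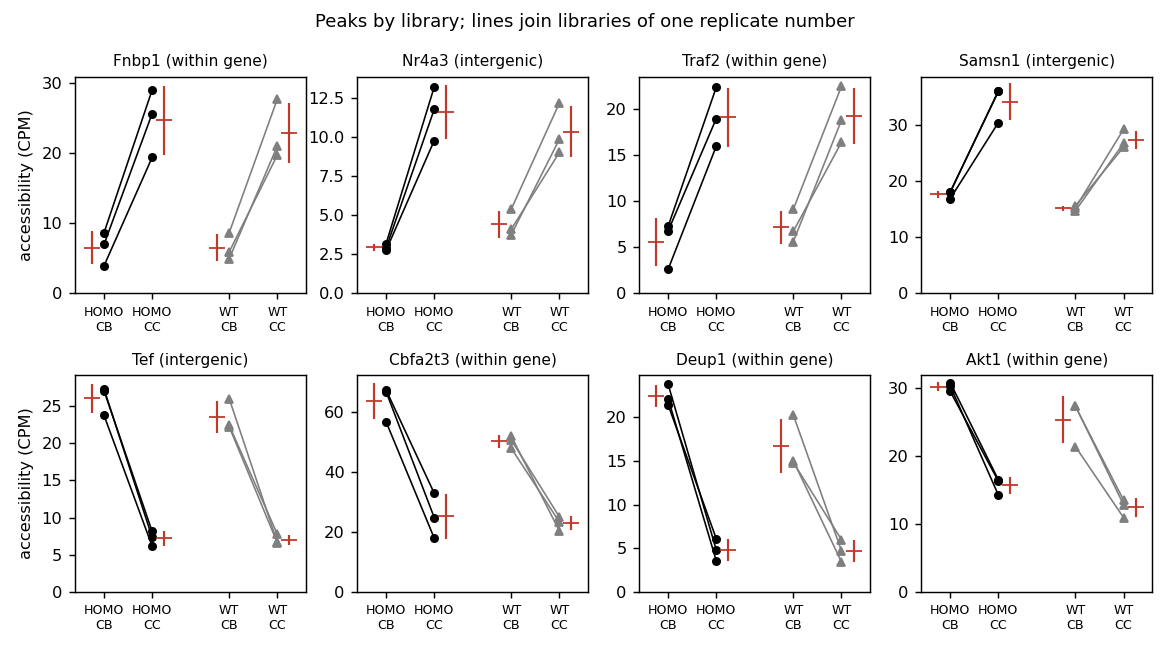
Accessibility in CPM (y axis, from 0) of 8 peaks, each labelled with its assigned gene and class, in HOMO and WT libraries of CB and CC cells; lines join libraries of 1 replicate number and red marks show the mean and SD of 3 libraries. At Fnbp1, Nr4a3, Traf2 and Samsn1 every CC library lies above every CB library of its genotype, and at Tef, Cbfa2t3, Deup1 and Akt1 every one lies below.

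The cell labels were read against genes that mark the 2 zones. Of the 23 peaks assigned to Cd83, a surface protein of light zone and activated B cells, 17 were higher in HOMO CC and 1 was lower. Of the 24 peaks of Cxcr4, none was higher and 11 were lower. Ccnd3, the cyclin that drives dark zone divisions, had 0 higher and 5 lower of 18 peaks, and Foxo1 had 2 higher and 5 lower of 29. The other markers were mixed: Cd86 had 4 higher and 3 lower of 21, Nfkb1 4 and 2 of 26, Myc 2 and 1 of 13, and Egr1 0 and 2 of 7. The B cell identity genes, among them Pax5, Ebf1 and Cd79a, all had peaks, and the 129 peaks of that list summed to 2890 to 3014 CPM in HOMO CB and 2572 to 3013 CPM in HOMO CC.

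The strongest gene-end peaks of these and related genes were mostly not called. At Cxcr4 that peak read 43.6, 43.9 and 37.5 CPM in CB and 34.2, 43.7 and 38.1 CPM in CC, so the groups overlapped (log2 fold change -0.06, SE 0.0712, adjusted p = 0.586). Changes of -0.19 to 0.18 with adjusted p-values of 0.0964 or more were measured at the ends of Foxo1, Ccnd3, Bcl6, Bach2, Cd86, Cd40, Nfkb1, Egr1, Myc, Irf4, Prdm1, S1pr2 and Gpr183. The other 2 gene-end peaks of this group passed. The Ccnd2 gene-end peak, at a D-type cyclin, read 25.4, 21.3 and 23.3 CPM in CB and 27.1, 29.0 and 33.3 CPM in CC (0.40, SE 0.0835, adjusted p = 0.00013, and 0.0898 without the block). At Cd83 the gene-end peak rose by 0.18 (SE 0.0661, adjusted p = 0.0423), with overlapping groups and an adjusted p of 0.494 without the block. At Pbrm1 itself, the gene-end peak, which also covers the start of the neighbouring Gnl3, read 26.5, 29.6 and 36.0 CPM in HOMO CB and 28.4, 26.0 and 36.2 CPM in HOMO CC (-0.05, adjusted p = 0.727). In WT it averaged 31.6 ± 6.78 CPM in CB and 32.1 ± 7.501 CPM in CC (SD, n = 3), so an accessible start site does not check the knockout.

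Genes of the light zone surface and costimulation had many peaks that gained accessibility in CC. Of the 190 peaks at their 16 genes, 48 were higher (25.3%, against 12.7% of all autosomal peaks) and 16 lower (8.42%, against 9.74%), and the median change was 0.08 against -0.004 over all peaks. Of the 48, 17 were assigned to Cd83. Fcer2a had 3 higher of 4, and Samsn1, an adaptor that dampens B cell receptor signalling, 4 higher of 15. The leading Samsn1 peak, 8569 bp from the gene, read 16.9, 18.1 and 18.03 CPM in CB and 30.5, 36.0 and 36.1 CPM in CC (0.97, SE 0.0835, adjusted p = 5.32e-15). Near Ccl22, a chemokine that attracts follicular helper T cells, a peak rose from 0.786, 1.08 and 1.64 CPM to 3.99, 6.22 and 5.36 CPM (2.10, SE 0.235). Some members went the other way, with a peak within Cd86 at -0.999 (SE 0.125), one within Cd44 at -0.69 and one within Cd80 at -0.51. Without HOMO replicate 3 the list held 27 higher and 10 lower peaks. Without the block it held 22 and 4 (11.6% and 2.11%, against 4.83% and 2.46% of all peaks). In WT the list held 28 higher (14.7%) and 23 lower (12.1%) peaks, against 10.5% and 11.8% of all peaks. No list was tested between genotypes.

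The immediate early and AP-1 genes, which B cells switch on within minutes of receptor or CD40 signals, had 27 higher (23.3%) and 9 lower (7.76%) of 116 peaks. In WT they had 15 higher (12.9%) and 13 lower (11.2%), against 10.5% and 11.8% of all peaks. The HOMO counts by gene were as follows. Nr4a1 had 6 higher of 9 and Egr3 4 higher of 5, while Egr1 had 2 lower and Atf3 3 lower peaks. The leading Nr4a1 peak read 13.5, 17.8 and 23.7 CPM in CB and 25.9, 31.0 and 37.0 CPM in CC (0.75, SE 0.0819, adjusted p = 2.64e-11). Every CC library there was above every CB library. CD40 and NF-kB genes were closer to the background, with 24 higher (14.6%) and 11 lower (6.71%) of 164 peaks. In that list peaks within Traf2, Traf3 and Nfkbie rose and a peak within Cd40 itself fell, from 13.0, 15.6 and 17.5 CPM to 7.69, 6.55 and 7.19 CPM (-1.18, SE 0.133). The Nfkbie peak, at an inhibitor of NF-kB, rose by 0.57 with overlapping groups, and its adjusted p was 0.47 without the block. Without the block the immediate early list held 4 higher (3.45%) and 2 lower (1.72%) peaks, below the shares of all peaks in that fit (4.83% and 2.46%), so its excess of higher peaks was not seen there.

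Memory precursor genes had more peaks gained than lost in CC. In WT, of 99 peaks at 10 genes, 14 were higher (14.1%, against 10.5% of all peaks) and 3 lower (3.03%, against 11.8%). In HOMO 27 were higher (27.3%) and 3 lower (3.03%), with a median change of 0.13. Bcl2, the survival factor, had 11 higher and 0 lower of 22, Ccr6, a chemokine receptor of memory precursors, 5 and 0 of 14, and Tle3 and Ski, both corepressors, 4 of 16 and 3 of 5. The leading Ski peak read 2.49, 3.77 and 3.23 CPM in CB and 5.91, 10.5 and 9.17 CPM in CC (1.46, SE 0.163, adjusted p = 5.98e-11). A peak within Bcl2 was weakly open in CB, at 0.655, 0.868 and 0.717 CPM, and read 2.81, 3.28 and 3.30 CPM in CC (2.06, SE 0.291). Peaks at Gpr183, a receptor that guides B cells to the follicle's edge, and Klf2, a factor of recirculating lymphocytes, were among the 3 that fell. The list held 18 higher and 4 lower peaks without HOMO replicate 3 and 11 and 0 (11.1% and 0.0%) without the block. Its share of higher peaks was the highest of the 18 pathway lists in the blocked fit, but in the fit without the block the light zone list's was higher.

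Dark zone regulators changed in both directions and had the highest share of peaks lost in CC of the pathway lists. Of 214 peaks, 47 were lower (22.0%) and 32 higher (15.0%), and 23 of the higher ones were assigned to Foxp1. Gcsam, a germinal center adaptor also called M17, had 6 lower and 1 higher of 8 peaks, and the leading one read 20.04, 21.1 and 22.7 CPM in CB and 8.28, 11.2 and 10.4 CPM in CC (-1.07, SE 0.110, adjusted p = 4.75e-12). The Cxcr4 peak of smallest p, 969 bp from a gene end, fell from 33.3, 34.0 and 33.3 CPM to 14.3, 22.6 and 20.2 CPM (-0.75, SE 0.0943, adjusted p = 5.73e-09). Pou2af1, the B cell coactivator of the octamer factors, had 4 lower and 2 higher of 8. A peak 9173 bp from Tcf3, which encodes the E proteins E12 and E47, rose by 1.07 (SE 0.104). Without the block the list held 20 lower (9.35%) and 19 higher peaks, and its lower share was still the highest of the pathway lists. In that fit 1654 of all 67159 peaks were lower and 3241 higher.

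Plasma cell genes were also more often lower in CC, with 27 lower (20.6%, against 9.74% of all peaks) and 11 higher (8.40%, against 12.7%) of 131. Xbp1, the transcription factor of the secretory program, had 5 lower and 0 higher of 11. Its leading peak, 19578 bp from the gene, read 15.5, 17.2 and 20.6 CPM in CB and 9.46, 7.22 and 8.88 CPM in CC (-1.14, SE 0.113, adjusted p = 1.19e-12). Zbtb20 had 10 lower and 6 higher of 47, Mzb1 2 lower of 3, and a gene-end peak of Slamf7 fell by 0.83 (SE 0.0949, adjusted p = 1.45e-10, and 0.0736 without the block). Prdm1 and Irf4, which start plasma cell differentiation, had 1 higher and 0 lower of 9 peaks and 1 higher and 1 lower of 16. Without the block the list held 9 lower and 5 higher of its 131 peaks, where 2.46% of all peaks were lower and 4.83% higher. In WT it held 30 lower (22.9%) and 10 higher (7.63%), against 11.8% and 10.5% of all peaks.

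The B cell receptor list held fewer higher peaks than the background, 18 of 249 (7.23%, against 12.7%), and 29 lower ones (11.7%, against 9.74%). In WT it held 15 higher (6.02%, against 10.5% of all peaks) and 60 lower (24.1%, against 11.8%). In HOMO without the block it held 9 of each, where 4.83% of all peaks were higher and 2.46% lower. Its largest changes were at Malt1, the paracaspase that links the receptor to NF-kB: a peak 9427 bp away read 10.6, 12.4 and 11.3 CPM in CB and 2.51, 2.94 and 3.33 CPM in CC (-1.93, SE 0.170, adjusted p = 2.58e-14). In contrast a peak within Syk, the receptor's proximal kinase, rose by 1.16 (SE 0.115). Among the genes of the PI3K and Akt pathway, 16 peaks were higher (12.03%) and 17 lower (12.78%) of 133. Of all peaks, 12.7% were higher and 9.74% lower, so the list as a whole lay near the background. Within the list Akt1 had 5 lower and 0 higher of 7. The leading Akt1 peak fell from 29.5, 30.3 and 30.8 CPM to 16.3, 14.2 and 16.5 CPM (-0.96, SE 0.0891). Of the migration genes, Rgs13, a regulator of chemokine receptor signalling in germinal center B cells, had 9 higher and 0 lower of 15, and S1pr1, the egress receptor, 0 higher and 4 lower of 19. The whole migration list had 16 higher (14.3%) and 13 lower (11.6%) of 112, against the same 12.7% and 9.74%.

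Mitosis and spindle genes had 14 higher (18.4%) and 2 lower (2.63%) of 76 peaks. In WT they had 13 higher (17.1%) and 8 lower (10.5%), against 10.5% and 11.8% of all peaks. Division in a germinal center is usually placed in the dark zone. In HOMO none of the peaks of Mki67, Plk1, Aurka, Ccnb1, Ccnb2 or Ccna2 was called. The higher peaks were at Nusap1 (4 of 5), Cenpe, Bub1b, Aurkb, Cenpf, Top2a and Tpx2. The Bub1b peak of smallest p, within the gene, read 9.17, 12.7 and 13.2 CPM in CB and 19.8, 27.0 and 30.3 CPM in CC (1.14, SE 0.0955, adjusted p = 1.97e-15). Of the 29 gene-end peaks of this list, 1 was higher and 1 lower. DNA replication genes had 6 higher (9.38%, against 12.7% of all peaks) and 5 lower (7.81%, against 9.74%) of 64 peaks. None was called at Pcna, and 2 of 3 were higher at Pole.

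The remaining lists held few changes or went both ways. Their shares stand beside 12.7% higher and 9.74% lower of all autosomal peaks. Germinal center transcription factors had 74 higher (17.7%) and 54 lower (12.9%) of 417 peaks, of which Bach2 gave 29 and 8; none of the 11 peaks assigned to Bcl6 was called. Myc and G1 control genes had 15 higher (12.2%) and 12 lower (9.76%) of 123, with Ccnd2 at 4 and 0 of 7 and E2f2 at 0 and 3 of 11. Survival and death genes had 8 higher (8.99%) and 9 lower (10.1%) of 89, and hypermutation and class switching genes 2 (3.85%) and 5 (9.62%) of 52. Antigen presentation genes had 5 higher (10.2%) and 0 lower of 49 peaks at 6 of 16 genes, and 0 higher without the block. BAF and PBAF subunit genes had 15 higher (9.09%) and 17 lower (10.3%) of 165. Among them Smarca4 had 0 higher and 3 lower of 11, Smarca2 4 and 0 of 16, and Arid2, a PBAF subunit, 2 and 0 of 3. Interferon response genes had 10 higher (15.2%) and 5 lower (7.58%) of 66. The counts were 8 and 9 with loess offsets, 4 and 5 with DESeq2, 3 and 3 without the block, and 2 and 8 in WT. This list has no direction that holds across settings. It includes Ifitm3, an antiviral membrane protein, with 0 higher and 4 lower of 6. The 18 pathway and 7 marker lists together gave 397 higher and 290 lower peaks, and 155 and 86 without the block.

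**Figure D3:**
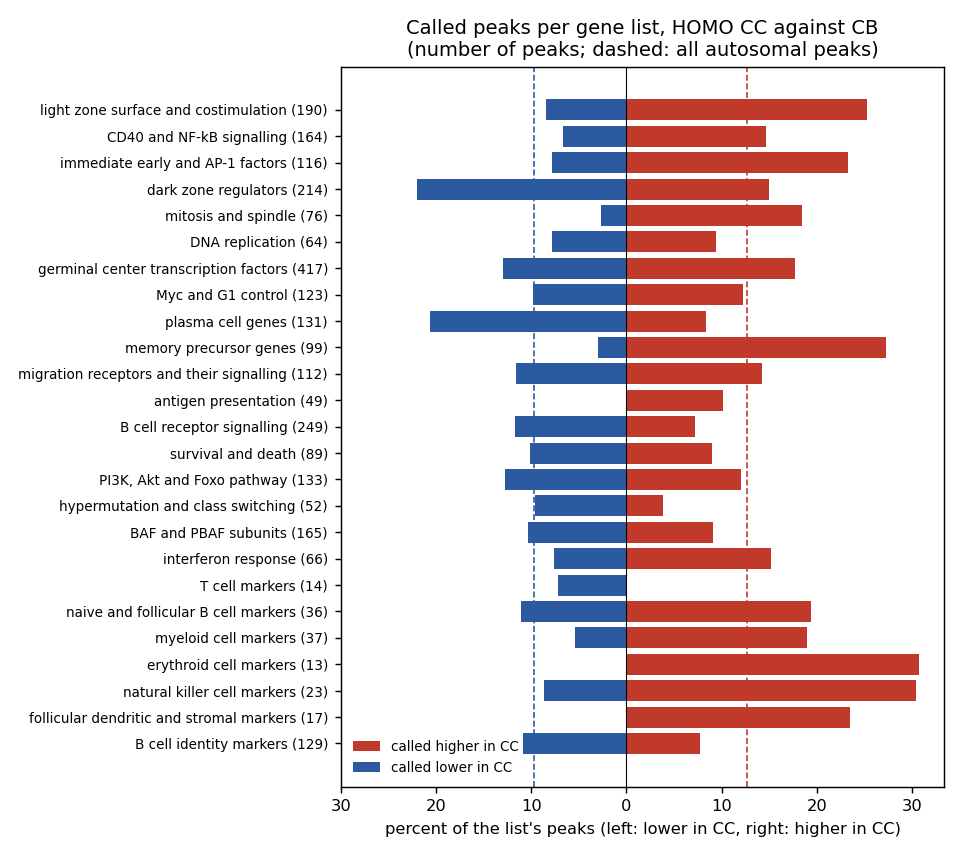
Bars give the percent of each gene list's peaks called higher (right, red) or lower (left, blue) in HOMO CC against HOMO CB, with the number of peaks in brackets and dashed lines at the shares of all autosomal peaks (12.7% and 9.74%). Light zone, immediate early and memory precursor lists reach past 20% on the right, as do the short erythroid (30.8%), natural killer (30.4%) and stromal (23.5%) marker lists, and dark zone and plasma cell lists pass 20% on the left.

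Markers of cell types other than germinal center B cells had few peaks. Of 12 T cell markers 6 had any peak, with none at Cd3g, Cd8a, Lck or Il7r. The constant-region genes Trac and Trbc1 had none either. Peaks were named only for protein-coding spans, so these 2 genes may have had no chance of one. The 14 T cell marker peaks summed to 61.0 to 73.2 CPM in HOMO CB and 73.7 to 77.3 CPM in HOMO CC. Of them 1 peak, within Tcf7, was called, lower in CC. Myeloid markers had 7 higher and 2 lower of 37 peaks, with sums of 442.7 to 455.2 CPM in CB and 451.1 to 500.1 CPM in CC, and none at Lyz2, Mpo, Elane or S100a8. Both Csf1r peaks rose, by 1.33 and 1.21, as did 3 of the 5 peaks assigned to its neighbour Pdgfrb, which is on the stromal list. Natural killer markers had 7 higher and 2 lower of 23 (sums of 176.3 to 195.0 CPM in CB and 166.1 to 234.4 CPM in CC), with no peak at Gzmb, Klrd1 or Klrk1 and 4 of the 7 at Il2rb, the interleukin 2 receptor beta chain. Erythroid markers had 4 higher of 13, stromal markers 4 of 17, and naive B cell markers 7 higher and 4 lower of 36. The higher share was thus 30.8% for erythroid, 30.4% for natural killer, 23.5% for stromal, 19.4% for naive B cell and 18.9% for myeloid markers, against 12.7% of all peaks. The first 3 are close to or above the 25.3% of the light zone list and the 27.3% of the memory precursor list, though over far fewer peaks. The part of other cells in the results was not tested, and fewer cells of a type cannot be told apart from less open chromatin per cell.

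Changes of 1 sign lay side by side along the chromosomes. Of 4718 pairs of neighbouring called peaks within 10000 bp of each other, 2108 were both higher, 2032 both lower and 578 of opposite sign, so 87.8% shared their sign, against 50.9% if the signs were mixed at their overall shares. The gap of 10000 bp was chosen after values were seen, and the length of a run depends on it. At least 5 neighbouring higher peaks formed a run in 51 places and at least 5 lower ones in 92. The longest run of higher peaks held 12 called of 15 peaks over 41376 bp at Cd83 (chr13:43743959-43785334), with a median change of 0.54. Others were at Bhlhe40, a transcriptional repressor, with 9 of 11, Smad3, a TGF-beta effector, with 9 of 11, Bach2, with 9 of 9, and Ubash3b, a phosphatase that dampens antigen receptor signalling, with 7 of 7 and a median of 1.03. The longest run of lower peaks held 15 of 17 at Trp53i11 (chr2:93131744-93190336, median -0.64). Further lower runs were at Rpl11 and Id3, an inhibitor of E proteins, with 11 of 14, at Hnrnpll, a splicing regulator of plasma cells, with 10 of 11, and at Cplx2 and Thoc3, with 9 of 9 and a median of -0.86.

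Peaks at the kappa light chain, an antibody gene that the nearest protein-coding gene does not show, were also lower in CC. The stretch of 43.2 kb from the first joining segment of the locus (Igkj1) past its constant region (Igkc, chr6:70726435-70726754) to the start of Rpia, a pentose phosphate enzyme, held 15 peaks. Of these, 9 were lower in HOMO CC and none higher, with changes from -1.25 to 0.20. The peak with the largest fall, 35693 bp beyond the end of Igkc (chr6:70762447-70762947), read 32.0, 24.98 and 24.1 CPM in HOMO CB and 13.3, 10.05 and 10.5 CPM in HOMO CC (SE 0.102, adjusted p = 5.73e-16). In WT 10 of the 15 were lower and none higher, and that peak changed by -1.04 (SE 0.109). The stretch was singled out after its values were seen.

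At single genes with many peaks the 2 directions could be separated in space. Bach2, a repressor that holds back plasma cell fate, had 29 higher and 8 lower of 55 peaks, more higher peaks than any other gene. Its 8 lower peaks lay on both sides of the 5′ end of the gene's RefSeq span, 4 before it, up to 20723 bp away, and 4 in the gene, 9422 to 11529 bp in. The 5 peaks nearer to that end were not called. Of the higher peaks 27 lay in the gene, the first 19792 bp in, and 2 past its other end. The largest change was 1.59, at chr4:32405921-32406421, where CB libraries read 1.83, 3.09 and 2.44 CPM and CC libraries 5.32, 7.22 and 9.43 CPM. Lpp had 26 higher and 3 lower of 52, and Foxp1 23 and 11 of 104. Among genes with most lower peaks, Xxylt1 had 15 lower and 3 higher of 27, Vav2, an exchange factor downstream of the B cell receptor, 14 and 1 of 36, and Trp53i11 13 and 0 of 18. Genes with many peaks have more chances to be called, and these counts carry no test.

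**Figure D4:**
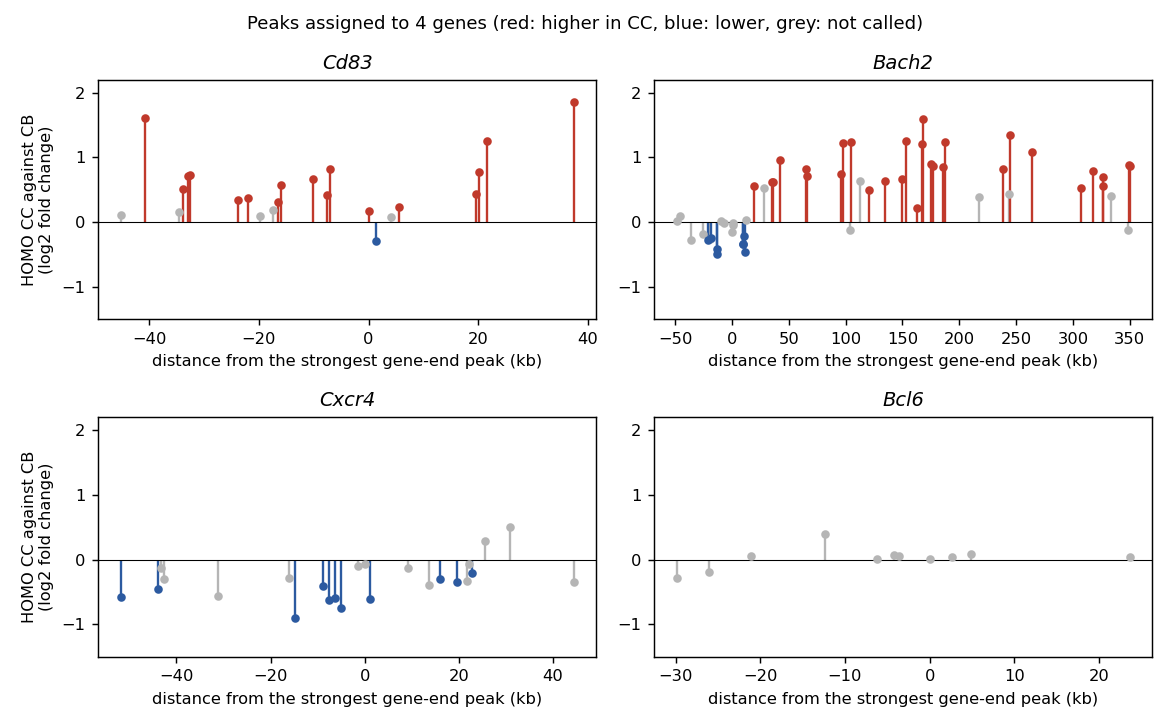
Log2 fold change of HOMO CC against CB (y axis) of each peak assigned to Cd83, Bach2, Cxcr4 and Bcl6, by distance in kb from the gene's strongest gene-end peak (x axis), coloured as higher (red), lower (blue) or not called (grey). Cd83 has 17 red of 23 peaks, Cxcr4 11 blue of 24, Bach2 blue peaks on both sides of the start and red ones further along the gene and past its end, and Bcl6 no call among 11.

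The 3 pairs showed 1 sign at 51.1% of all autosomal peaks and at 38.4% of the peaks not called. The share was 94.4% of the higher and 95.8% of the lower peaks, which were called from these same pairs. Over all autosomal peaks the SD of the log2 ratio was 0.64 in pair 1, the shallowest, and 0.44 in both of the others. As a description across peaks, which share libraries and are not independent, the pair ratios correlated with r = 0.73 between pairs 2 and 3, 0.49 between pairs 1 and 2 and 0.49 between pairs 1 and 3. Total counts were 6431354 and 7679509 in pair 1 (CC and CB), 26724546 and 37127894 in pair 2 and 38649269 and 45590454 in pair 3, and 8826472 to 31595888 in the WT libraries.

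Set beside WT, the HOMO differences had the same direction at most peaks. In WT 14997 peaks were called (22.3%), 7043 higher (10.5%) and 7954 lower (11.8%); the WT split turns to 8897 higher and 4405 lower with plain library totals. Of the 8504 peaks higher in HOMO CC, 4999 (58.8%) were called higher in WT, none was called lower, and 97.0% had the same sign, with a median log2 fold change of 0.71 in HOMO and 0.52 in WT. Of the 6544 lower in HOMO CC, 4112 (62.8%) were called lower in WT, none higher, and 98.2% had the same sign, with medians of -0.44 and -0.36. Choosing peaks by their HOMO call favours a larger HOMO value: the peaks called in WT had medians of 0.67 in HOMO and 0.75 in WT when higher, and of -0.26 and -0.36 when lower. Those 4999 and 4112 peaks were 71.0% and 51.7% of the WT calls. The 2 comparisons share no library, and across all peaks the log2 fold changes had r = 0.79.

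**Figure D5:**
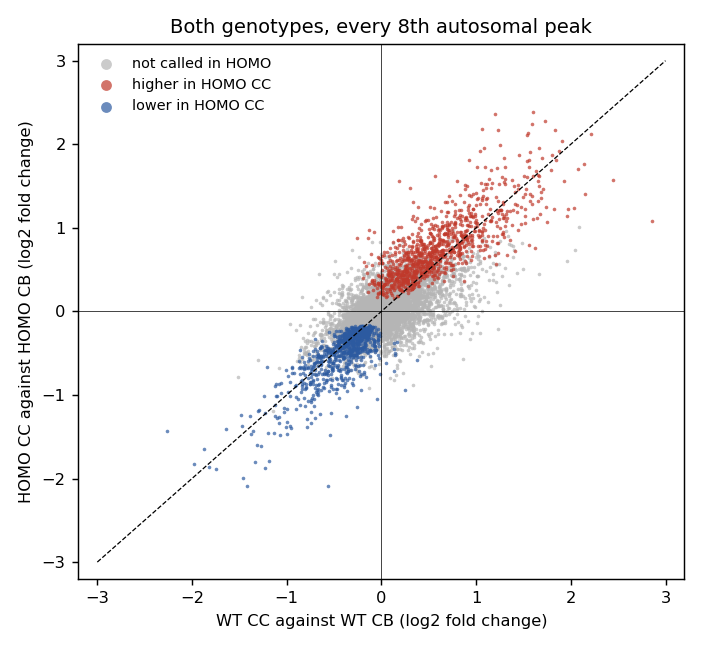
Each point is 1 autosomal peak (every 8th): the x axis is the log2 fold change of CC against CB in WT and the y axis that in HOMO, coloured by the call in HOMO, with a dashed line of equality. Coloured points lie mostly in the quadrants of equal sign, 97.0% of the higher and 98.2% of the lower peaks.

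The difference itself, the CC against CB change in HOMO less that in WT, was called at 0 of the 67159 peaks (0.0%) by edgeR. At an unadjusted p under 0.05 it passed at 3701 peaks (5.51%), and the smallest adjusted p was 0.106. DESeq2 also called 0, with 1339 at an unadjusted p under 0.05, and limma-voom called 3, with 5078. The median SE of the difference was 0.20 on the log2 scale. Of the 24 peaks of smallest p, the one within Slc12a8 had the smallest p for this test: it rose by 1.65 in HOMO and 0.98 in WT, a difference of 0.68 (SE 0.145, adjusted p = 0.345). Even a difference of more than 4 times its SE at a single peak thus did not pass the adjustment with these libraries. The HOMO CB libraries there read 4.58, 9.63 and 7.91 CPM and the HOMO CC libraries 16.1, 28.0 and 26.0 CPM, against means of 12.3 ± 2.92 and 24.4 ± 4.26 CPM (SD, n = 3) in WT CB and CC.

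Motifs in the start windows were counted as letters on both strands of 300 bases. Among the windows under peaks higher in CC (466), lower in CC (901) and not called (10107), a GC box (CCGCCC) was found in 51.7%, 68.7% and 67.5%, beside 36.0% of all 31396 autosomal windows. Either of the NF-kB words GGGACTTTC and GGAATTTCC was found in 1.93%, 0.333% and 0.623% of them, which is 9, 3 and 63 windows, beside 0.675% of all. The AP-1 words TGACTCA and TGAGTCA were in 5.58%, 2.11% and 3.08%, beside 5.26% of all, and the Egr word GCGTGGGCG in 2.58%, 1.33% and 1.19%, beside 0.605%. An Ets word (GGAAGTGA) was in 3.43%, 1.55% and 5.65%, beside 3.47%, and the E-box CACGTG in 6.87%, 12.3% and 10.7%, beside 7.14%. The octamer ATTTGCAT (7, 20 and 150 windows, beside 548 of all), the forkhead words TGTTTAC and GTAAACA (2.79%, 3.00% and 2.18%, beside 3.71%) and the NF-Y words GATTGG and CCAATC (12.9%, 17.1% and 22.0%, beside 16.0%) were counted as well. The windows of the 3 sets differed in composition, with a median GC content of 57.3% under higher, 64.0% under lower and 62.0% under uncalled peaks. No test was made of these shares.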

How the data were processed

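The authors deposited raw read counts per 501 bp peak for 12 libraries, 3 for each genotype and cell type, as the table's column names and the labels give them. The submitters' processing notes name FastQC, BWA, deepTools, R 4.2.1 and mm10; for the peak caller, counter, duplicates and Tn5 offsets, the sources used here give nothing. Counts were scaled by TMM and tested with edgeR 4.0.16 in R 4.3.3 (quasi-likelihood, robust; a block of 6 genotype-by-number levels and a CC term per genotype; 4 residual degrees of freedom), two-sided, with Benjamini-Hochberg adjustment over 68689 peaks and a call at 0.05. The spread of each peak was moderated toward that of other peaks, with a median prior of 65.5 degrees of freedom. The filter on low counts removed 0 peaks. Log2 CPM used a prior count of 2. Deviations from group means correlated by 0.22 to 0.44 between HOMO libraries of the same number and by 0.21 to 0.52 in WT. For different numbers the correlations were -0.34 to 0.13. Deviations from a group mean cancel out at each peak, so positive values for the same number push the others down. HOMO libraries of the same number were also close in depth. These correlations therefore cannot show what the numbers pair. The pairing itself comes from the replicate numbers in the labels.

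Peaks took the nearest of 21631 RefSeq protein-coding spans (GRCm38.p6) within 50000 bp (93.3% of autosomal peaks, 13861 genes), and start windows came from RefSeq. Of 353 listed genes, those with no peak could not be described, and 6 were not among the protein-coding genes, so no peak could be named for them. Peaks were named by rule: the 12 of smallest p per direction with a mean of at least 1 log2 CPM and 1 sign in all 3 pairs, up to 3 per list and direction, the strongest gene-end peak of marker genes, and the genes with most called peaks. The members and lists were chosen with earlier results of these data known. Alternatives were DESeq2 1.42.0, limma-voom 3.58.1, other scalings, filters and left-out libraries. The fit was tested on simulated counts with 200 peaks changed in HOMO CC, 50 at each fold. It recovered 26% of 1.25-fold, 50% of 1.5-fold, 80% of 2-fold and 98% of 3-fold changes. Of its 133 calls, 6 were false (4.51%). Far fewer peaks were changed there than were called in the data, so these shares may not carry over. X-linked peaks were left out of the counts. Values of some listed genes are not reported here.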

Additional observations from a re-analysis of the deposited data

Results flagged for a closer look

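In 2 of the named peaks all 3 HOMO pairs moved one way and all 3 WT pairs the other, a pattern found at 1059 of the 67159 autosomal peaks (1.58%). At a peak within Rev1, a translesion DNA polymerase gene (chr1:38109664-38110164), the HOMO pairs changed by 0.007, 0.25 and 0.51 on the log2 scale and the WT pairs by -0.04, -0.13 and -0.05. The difference of HOMO less WT was 0.39 (SE 0.169), and edgeR's test of the difference gave an unadjusted p of 0.0235 and an adjusted p of 0.869. At the gene-end peak of Ccnd3 (chr17:47504778-47505278) the HOMO pairs changed by -0.22, -0.27 and -0.10 and the WT pairs by 0.04, 0.04 and 0.12. That difference was -0.26 (SE 0.119), with an unadjusted p of 0.0315 and an adjusted p of 0.878. Neither difference passed the correction.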

How the results depend on the processing

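The number of calls moved with the replicate block, with which pair was left out and with the test. Without HOMO pair 1, HOMO calls were 13911 and WT calls 17606. Without the replicate block HOMO calls went from 15048 to 4895, WT calls from 14997 to 3688 and calls in the gene lists from 687 to 241. DESeq2 with the block gave 9149, 8220 and 455. Leaving out 1 pair of either genotype gave 8331 to 15677 HOMO calls, 8409 to 17606 WT calls and 413 to 713 list calls, and leaving out CB library 1, 2 or 3 without the block gave 3712, 2932 and 2436 HOMO calls and 189, 143 and 148 list calls. Leaving out CC library 1, 2 or 3 gave 4620, 1995 and 3347 HOMO calls and 228, 109 and 169 list calls. The cause was not tested, but the left-out fits hold fewer libraries. Other scalings, filters, the depth covariate, the 6 HOMO libraries alone and limma-voom gave 12231 to 19207 HOMO calls, all within 1.5 times. The difference between genotypes was called at 1 peak with plain library totals, at 1 with loess offsets and at 3 with limma-voom, and at 0 otherwise. Of 154 named called peaks, 36 lost their call without the block, 18 with some HOMO pair left out, and 44 to 71 with 1 HOMO library left out and no block; none reversed under the 23 settings. The pairing changed no direction among them. Pair 1, at 6431354 and 7679509 counts, limits what weak peaks can show. P-values of the blocked fits cover only the spread of the CC to CB ratio between 3 pairs a genotype. Those without the block cover only the spread between 3 libraries a group.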
